A study of Mus musculus with 9 samples.

Results

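Genes of mitosis were described in cells of the embryonic mouse cortex after knockdown of a circular RNA, circSlc45a4, or of the linear Slc45a4 mRNA. A list of 59 gene symbols was looked up in the deposited count table. It covers cyclins A and B with Cdk1 and its activators, mitotic kinases, the spindle checkpoint, kinetochore proteins, kinesins, condensin and cytokinesis proteins. All 59 were found among 53379 gene IDs, and all 59 were among the 17760 genes that passed the filter on low counts. C57BL/6 embryos were electroporated in utero with short hairpin RNAs (shRNAs) at E13.5 (E, embryonic day). GFP+ cells of the cortex were sorted at E15.5 and their polyA RNA was sequenced. In the circSlc45a4 knockdown (circ knockdown below, 3 libraries) a mix of 3 shRNAs was used. In the Slc45a4 mRNA knockdown (mRNA knockdown below, 3 libraries) a mix of 2 shRNAs was used. In scramble (3 libraries) 1 scrambled sequence was used. All groups share the electroporation, the GFP label and the sort, and the effects of single hairpins within a mix cannot be told apart. The design text calls the libraries biological replicates, and how many embryos each holds is not given in the sources used here.

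Dividing progenitors of the embryonic cortex pass through mitosis at the ventricle or, for basal progenitors, above it, while newborn neurons have left the cycle. Cdk1 with cyclin B opens mitosis, the kinetochore couples chromosomes to the spindle, the checkpoint delays anaphase until they are attached, and the chromosomal passenger complex with centralspindlin directs cytokinesis. Many of these genes are transcribed late in the cycle through 2 promoter elements, the CHR (TTTGAA), bound by the DREAM and MuvB complexes, and the CCAAT box, bound by NF-Y.

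The promoter window of RefSeq (GRCm38.p6) was available for 50 of the 59 genes and spans 250 bases before to 50 bases after each start site. Both strands were searched. Genes were counted, and a gene with several windows was counted if any of them held the motif. The letters TTTGAA stood in 34 of 50 genes (68%) and in 20.2% of all 27025 genes with a window. Within 50 bases of the start they stood in 30 of 50 (60%) against 5.72% of all. CCAAT stood in 38 of 50 (76%) against 41.1%, both TTTGAA and CCAAT in 29 of 50 (58%) against 7.97%, and TTTNNCGC, an E2F-type motif, in 9 of 50 (18%) against 5.93%. Motifs were counted independently of each other, and matches to different motifs may overlap. Of the genes with a window that were called lower in the circ knockdown than in the mRNA knockdown, 30 of 43 held TTTGAA, and of the uncalled genes 4 of 7 did. A match is a description of the letters and not of a bound site.

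Stretches from 150 bases before to 30 bases after the start are shown for 5 genes that changed against scramble in at least 1 knockdown and for Ube2c, which changed in no comparison. Capitals mark the 2 motifs TTTGAA and CCAAT on either strand, so that a match on the other strand reads as its reverse complement. Cdc25b lies at chr2:131186798-131186977 on the plus strand, Hjurp at chr1:88277550-88277729 on the minus strand, Spc25 at chr2:69206184-69206363 on the minus strand, Cenpf at chr1:189688057-189688236 on the minus strand, Kif11 at chr19:37376232-37376411 on the plus strand and Ube2c at chr2:164769779-164769958 on the plus strand.
Cdc25b: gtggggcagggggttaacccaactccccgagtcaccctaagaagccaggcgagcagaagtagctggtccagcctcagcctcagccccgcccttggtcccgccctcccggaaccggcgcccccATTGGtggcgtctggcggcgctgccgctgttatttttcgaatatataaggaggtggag
Hjurp: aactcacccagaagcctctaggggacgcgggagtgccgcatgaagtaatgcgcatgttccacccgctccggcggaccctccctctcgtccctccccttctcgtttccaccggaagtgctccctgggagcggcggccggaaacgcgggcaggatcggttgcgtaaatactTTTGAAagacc
Spc25: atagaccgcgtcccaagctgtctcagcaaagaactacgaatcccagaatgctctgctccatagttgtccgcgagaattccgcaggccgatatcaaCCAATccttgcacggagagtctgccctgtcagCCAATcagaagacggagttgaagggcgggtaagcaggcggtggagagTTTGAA
Cenpf: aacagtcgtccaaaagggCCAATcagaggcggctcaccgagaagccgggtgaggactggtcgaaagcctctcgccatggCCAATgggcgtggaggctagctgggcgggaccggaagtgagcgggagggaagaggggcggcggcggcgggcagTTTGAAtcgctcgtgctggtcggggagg
Kif11: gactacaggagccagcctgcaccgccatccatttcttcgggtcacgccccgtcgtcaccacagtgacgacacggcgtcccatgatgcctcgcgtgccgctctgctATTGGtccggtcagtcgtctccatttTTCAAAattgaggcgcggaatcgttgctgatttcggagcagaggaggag
Ube2c: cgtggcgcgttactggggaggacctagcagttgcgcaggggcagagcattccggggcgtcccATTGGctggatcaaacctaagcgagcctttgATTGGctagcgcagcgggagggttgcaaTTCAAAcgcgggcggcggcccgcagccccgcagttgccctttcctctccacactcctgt
Cdc25b shows 1 inverted CCAAT and no TTTGAA in this stretch, while Spc25 and Cenpf show 2 CCAAT and 1 TTTGAA each. Ube2c holds both motifs as well.

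Total counts per library were 35307378 to 45469298 in the 2 knockdowns and 21073174 to 31833779 in scramble. Slc45a4 stood at 25.4, 25.3 and 24.7 CPM (counts scaled to a common library size) in the circ knockdown, 13.3, 18.5 and 17.4 CPM in the mRNA knockdown and 31.4, 33.6 and 33.96 CPM in scramble. The circular RNA has no polyA tail and its level was not analysed here. Xist, which is read from female cells, stood at 635, 264 and 428 CPM in the circ knockdown, 1550, 637 and 0.194 CPM in the mRNA knockdown and 0.239, 0.0648 and 0.0617 CPM in scramble. The sex of the embryos and the group can therefore not be told apart between the circ knockdown and scramble. Within the mRNA knockdown, replicate 1 had both the highest Xist and the highest summed CPM of the mitotic genes (5347). Replicates 2 and 3, at 637 and 0.194 CPM of Xist, had sums of 3856 and 3875. In the circ knockdown replicate 1 had the highest Xist of its group and the lowest sum (2375). Scramble sums were 2478, 3223 and 4028 at 0.239, 0.0648 and 0.0617 CPM of Xist. The part of Xist in the results for these genes was not tested beyond the covariate given with each comparison with scramble. Only the mRNA knockdown held both high and low Xist, with replicate 3 alone low. Calls kept or lost with that covariate therefore do not separate sex from group.

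The summed CPM of the 59 genes was 2375, 2623 and 2659 in the circ knockdown, 5347, 3856 and 3875 in the mRNA knockdown and 2478, 3223 and 4028 in scramble. Single libraries stood apart within 2 of the groups, and the mitotic genes did so together. Scramble replicate 1 was the lowest and replicate 3 the highest scramble library for 57 of 59 genes (96.6%), against 21.1% of all genes tested, with a median ratio of replicate 3 to replicate 1 of 1.75 (0.997 over all genes). Replicate 1 of the mRNA knockdown was the highest of its group for 57 of 59 genes (96.6%, against 39.4% of all genes), at a median 1.47 times the mean of the other 2 libraries. The median coefficient of variation over the 59 genes was 11.3% in the circ knockdown, 23.8% in the mRNA knockdown and 28.2% in scramble, against 10.7%, 12.5% and 9.93% over all genes. Because the samples are sorted pools of cells, fewer cells in division and less RNA per dividing cell cannot be told apart. Each comparison below is therefore given with the libraries that change it.

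**Figure D1:**
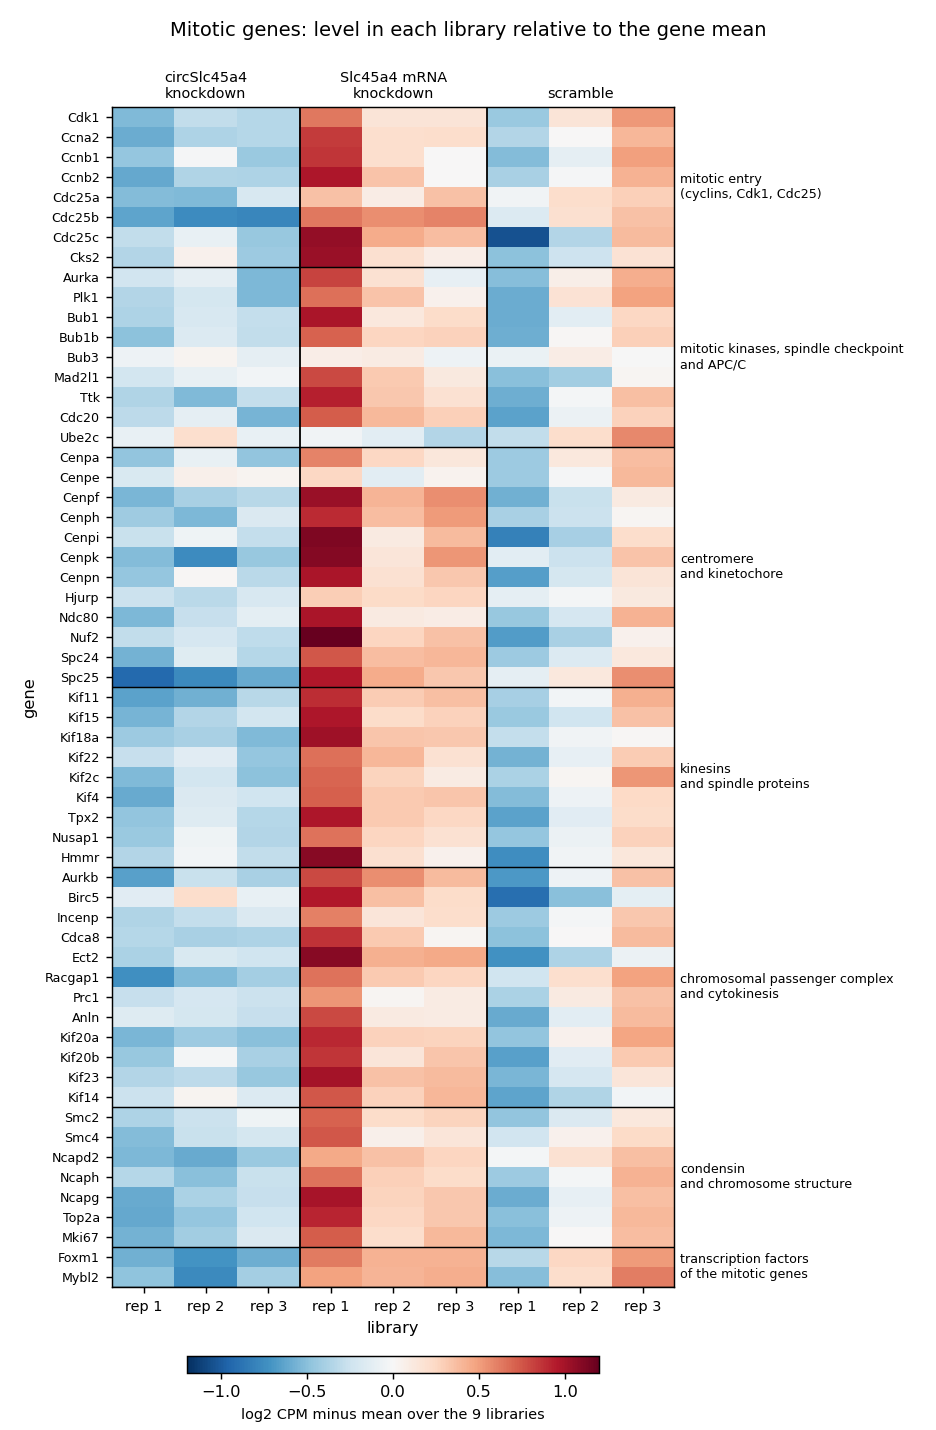
Level of each of the 59 genes (rows, by functional class) in each of the 9 libraries (columns, replicates 1 to 3 of the circSlc45a4 knockdown, the Slc45a4 mRNA knockdown and scramble), as log2 CPM minus the gene's mean over all libraries. The mRNA knockdown replicate 1 is the highest library for 54 genes, and the lowest level lies in scramble replicate 1 for 29 genes and in a circSlc45a4 knockdown library for another 29.

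**Figure D2:**
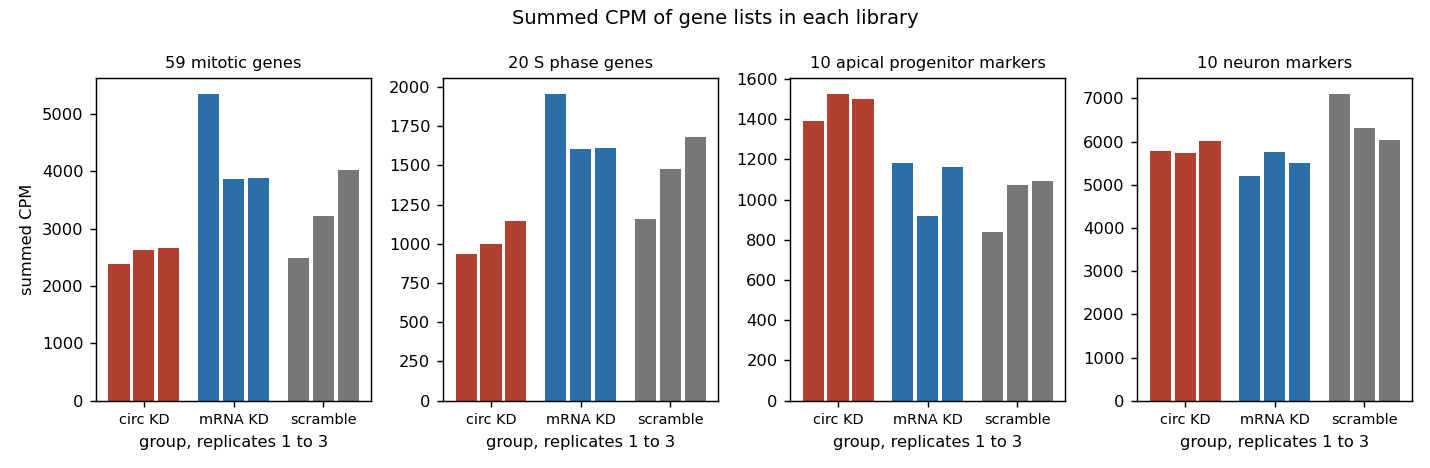
Summed CPM (vertical axes, from 0) of the 59 mitotic genes, 20 S phase genes, 10 apical progenitor markers and 10 neuron markers in each library, with replicates 1 to 3 side by side in each group. The mitotic sum spans 2375 to 2659 in the circSlc45a4 knockdown, 3856 to 5347 in the Slc45a4 mRNA knockdown and 2478 to 4028 in scramble.

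Most calls lay between the 2 knockdowns. Of 59 genes, 52 were lower in the circ knockdown than in the mRNA knockdown and 0 higher (88.1% lower). Over all genes 12.3% were called lower and 13.8% higher, 26.1% in all. The median log2 fold change was -0.79 (-0.02 over all genes). In 56 genes (94.9%) all 3 circ libraries stood below all 3 mRNA knockdown libraries, which held for 19.8% of all genes, with 20.3% the other way round. The values ranged from -1.37 for Spc25 to 0.18 for Ube2c. Without circ knockdown replicate 1 the count was 35 and without mRNA knockdown replicate 1 it was 36. Over all genes 1351 and 1789 were called lower in these fits, in that order, against 2187 in the main fit. Of the 52 calls, 35 were kept under every one of 17 alternatives. The median was -0.90 to -0.59 when single libraries were left out.

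Against scramble the circ knockdown had 9 genes lower and 0 higher (15.3% lower). Over all genes 13.0% were called lower and 14.1% higher (27.1% in all), so the share of mitotic genes called lower was close to the background. An unadjusted p under 0.05 was reached by 19 genes. The median log2 fold change was -0.28 (-0.01 over all genes), with 53 values below 0 and 6 above, from -0.98 for Spc25 to 0.47 for Birc5. When single libraries were left out the median was -0.44 to -0.06, the value nearest 0 being that without scramble replicate 3, where 21 values lay above 0. The groups did not overlap in 9 genes, all lower (15.3%, against 21.3% of all genes, with 22.6% higher). The 9 called genes were Cdc25a, Cdc25b, Hjurp, Spc25, Kif11, Racgap1, Ncapd2, Foxm1 and Mybl2. Of these, Kif11 and Mybl2 overlapped scramble, while Cenpk and Kif18a did not overlap it and were not called. Without scramble replicate 1, which had the lowest mitotic sum of its group, 24 were called, without mRNA knockdown replicate 1 there were 18 with Birc5 the only one higher, and without circ knockdown replicate 2 or scramble replicate 2 there were 6 each. Without scramble replicate 3 there were 7, of which 6 were lower and 1 higher. Over all genes 1902 and 2600 were called lower without scramble replicate 1 and mRNA knockdown replicate 1, against 2305 in the main fit. It was 1621, 1528 and 1719 genes without circ knockdown replicate 2, scramble replicate 2 and scramble replicate 3. With Xist as a covariate Cdc25b, Spc25 and Ncapd2 kept their calls, and these 3 kept them in every alternative. Over all genes the covariate left 813 higher and 435 lower, against 2509 and 2305 without it.

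Against scramble the mRNA knockdown had 19 genes higher and 0 lower (32.2% higher). Over all genes 8.92% were called higher and 9.09% lower. An unadjusted p under 0.05 was reached by 35 genes. The median was 0.48 (0.01 over all genes), with 58 values above 0 and 1 below, from -0.38 for Ube2c to 1.05 for Ect2. When single libraries were left out the median was 0.29, without mRNA knockdown replicate 1, to 0.73, without scramble replicate 3. In 18 genes the mRNA knockdown libraries all stood above scramble (30.5%, against 17.7% of all genes, with 18.4% lower). Both groups of this comparison hold libraries that stood apart. Without mRNA knockdown replicate 1 the count was 10, without scramble replicate 1 it was 9 (8 higher, and Ube2c lower), without scramble replicate 2 it was 8, and without scramble replicate 3 it was 40. Over all genes 1334, 1202, 864 and 1211 were called higher in these fits, in that order, against 1585 in the main fit. With Xist as a covariate edgeR called 0 of 59, with 8 at an unadjusted p under 0.05, while without the covariate DESeq2 called 21 and limma-voom 17, so none of the 19 calls was kept in every alternative. The 19 genes stood at 0.26 to 0.80 with the covariate, and over all genes it left 465 higher and 293 lower, against 1585 and 1615 without it.

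**Figure D3:**
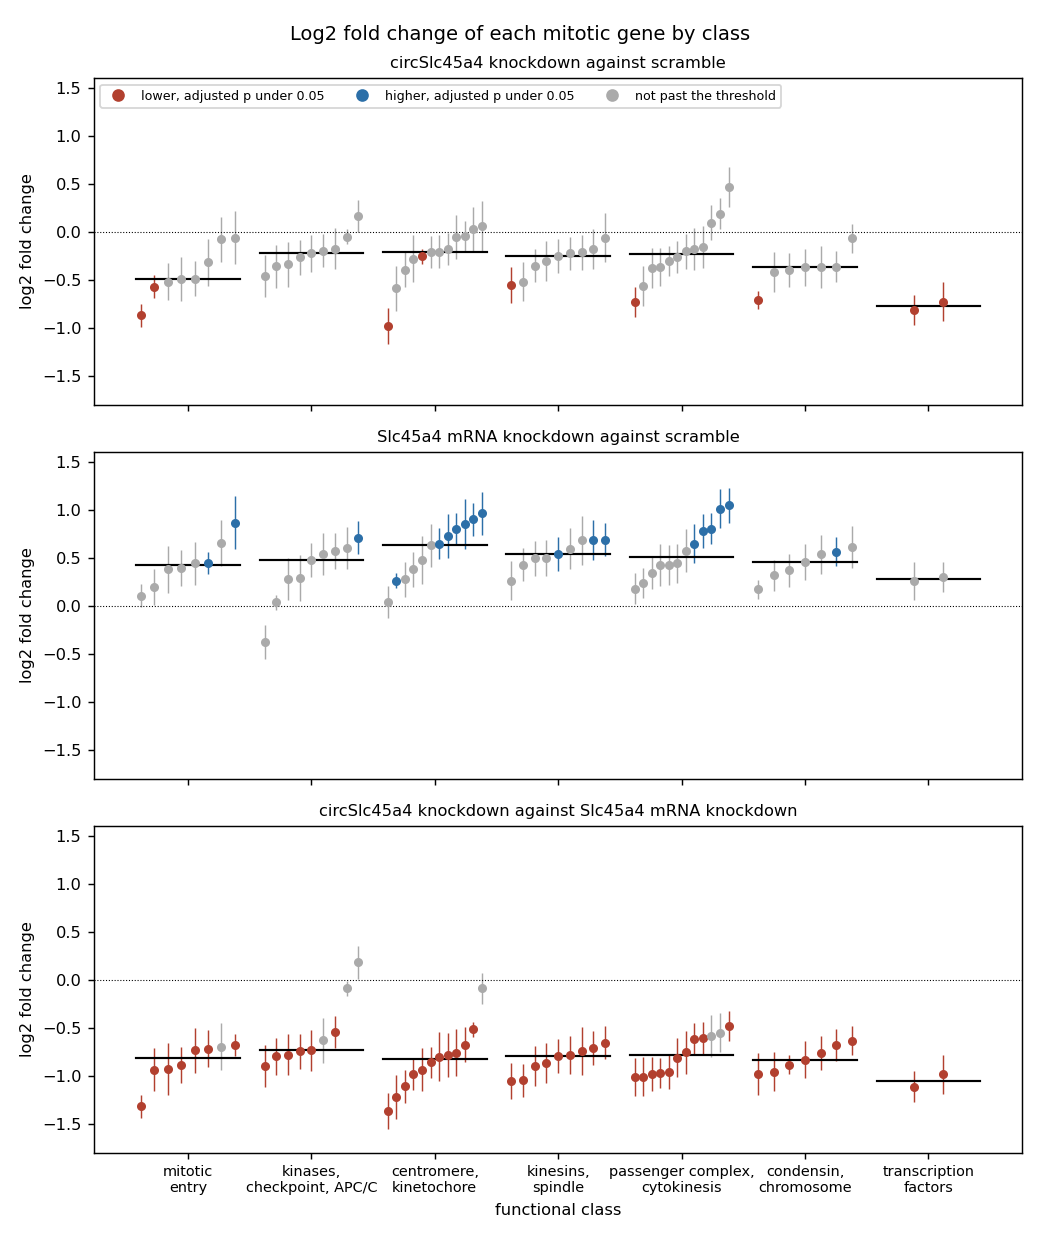
Log2 fold change (vertical axis) with its standard error for each of the 59 genes, by functional class (horizontal axis), in the 3 comparisons from top to bottom. Black lines are class medians, and colours mark genes past an adjusted p of 0.05, of which 9 are lower in the top panel, 19 higher in the middle panel and 52 lower in the bottom panel.

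Genes of mitotic entry were lower in the circ knockdown than in the mRNA knockdown in 7 of 8 cases, at a median of -0.81. Class counts here and below stand beside 12.3% of all genes called lower between the knockdowns. Against scramble, 13.0% of all genes were called lower in the circ knockdown and 8.92% higher in the mRNA knockdown. Calls said below to have ended leave out losses under the Xist covariate. Under it, 3 circ knockdown calls and 0 mRNA knockdown calls against scramble were kept. Cdc25b (ENSMUSG00000027330.16, chromosome 2, 131186949 to 131198497, plus strand) is a phosphatase that removes the inhibitory phosphates from Cdk1. It had 21.5, 19.8 and 19.5 CPM in the circ knockdown, 52.01, 49.2 and 50.5 CPM in the mRNA knockdown and 29.9, 38.3 and 42.8 CPM in scramble. The 3 groups did not overlap, with the circ knockdown at the bottom and the mRNA knockdown at the top. Its log2 fold change was -0.87 ± 0.12 (adjusted p = 1.54e-04) in the circ knockdown against scramble, 0.45 ± 0.12 (adjusted p = 0.0180) in the mRNA knockdown against scramble and -1.32 ± 0.12 (adjusted p = 9.35e-06) between the knockdowns. Cdc25a is a phosphatase of the same family that also acts on entry into S phase. It stood at 41.5, 41.2 and 52.04 CPM in the circ knockdown, 76.01, 63.4 and 76.1 CPM in the mRNA knockdown and 58.05, 69.2 and 72.5 CPM in scramble. All circ libraries were below all others, while the mRNA knockdown and scramble overlapped. The log2 fold changes were -0.57 ± 0.12 (adjusted p = 0.00304), 0.11 ± 0.12 (adjusted p = 0.569) and -0.68 ± 0.12 (adjusted p = 0.00107) in the same order of comparisons. Ccna2 is cyclin A2. It had 53.1, 62.01 and 63.4 CPM in the circ knockdown, 144, 92.5 and 93.2 CPM in the mRNA knockdown and 63.1, 80.7 and 106 CPM in scramble, with scramble overlapping both knockdowns. It was lower in the circ knockdown than in the mRNA knockdown, at -0.88 ± 0.19 (adjusted p = 0.00378). Ccnb1 is cyclin B1. It was the member of the class with no call, at 39.5, 54.2 and 40.01 CPM in the circ knockdown, 98.8, 62.95 and 54.7 CPM in the mRNA knockdown and 38.1, 50.6 and 77.03 CPM in scramble. Its circ libraries lay below its mRNA knockdown libraries, with a direct difference of -0.70 ± 0.24 (adjusted p = 0.0502). In the class 2 genes were lower in the circ knockdown and 2 higher in the mRNA knockdown against scramble, the higher ones being Cdc25b and Cdc25c (0.87 ± 0.28, adjusted p = 0.0440). Against scramble the mRNA knockdown call of Cdc25b ended without scramble replicate 1 (0.32) or 2 (0.47). That of Cdc25c ended without circ knockdown replicate 1 (0.85), 2 (0.85) or 3 (0.87), mRNA knockdown replicate 1 (0.62) or 2 (0.96) or scramble replicate 1 (0.60) or 2 (0.80), with DESeq2 (0.87) and with only the 6 libraries of the comparison (0.85). Cdk1 itself, its cyclin Ccnb2 and its adaptor Cks2 were called between the knockdowns alone, at -0.72, -0.94 and -0.74. The direct call of Cdk1 ended without circ knockdown replicate 1 (-0.64) or mRNA knockdown replicate 1 (-0.54). The direct call of Cks2 ended without circ knockdown replicate 1 (-0.67) or 3 (-0.64), mRNA knockdown replicate 1 (-0.37) or scramble replicate 2 (-0.73) and with DESeq2 (-0.72).

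The kinases, the spindle checkpoint and the anaphase-promoting complex (APC/C) held the lowest share of calls between the knockdowns. Of 9 genes, 6 were lower in the circ knockdown than in the mRNA knockdown (median -0.74), 0 were called in the circ knockdown and 1 was higher in the mRNA knockdown against scramble. The last is 11.1% of the class, near the 8.92% of all genes. Mad2l1 is the checkpoint protein that holds back the APC/C activator Cdc20. It was that gene, at 26.2, 28.7 and 29.8 CPM in the circ knockdown, 52.7, 37.7 and 33.1 CPM in the mRNA knockdown and 21.6, 22.7 and 30.9 CPM in scramble. Its mRNA knockdown libraries were above both other groups, which overlapped. It rose in the mRNA knockdown by 0.71 ± 0.17 (adjusted p = 0.0108) on the log2 scale and was lower in the circ knockdown than in the mRNA knockdown, at -0.55 ± 0.17 (adjusted p = 0.0282). The first call ended without scramble replicate 2 (0.64), and the second without circ knockdown replicate 1 (-0.48) or 2 (-0.55) or mRNA knockdown replicate 1 (-0.33). Bub3 is a WD-repeat protein that brings checkpoint kinases to kinetochores. It had 105, 112 and 101 CPM in the circ knockdown, 115, 117 and 105 CPM in the mRNA knockdown and 103, 116 and 108 CPM in scramble. All 9 libraries lay close together, and its log2 fold changes were -0.05, 0.04 and -0.09, each with a standard error of 0.08. Ube2c is the ubiquitin-conjugating enzyme of the APC/C. It stood at 29.8, 36.5 and 29.8 CPM in the circ knockdown, 30.8, 29.1 and 24.8 CPM in the mRNA knockdown and 25.8, 36.7 and 47.1 CPM in scramble. The groups overlapped in all comparisons, and it was the only one of the 59 genes with a value above 0 between the knockdowns, 0.18 ± 0.17 (adjusted p = 0.491), and the only one with a value below 0 in the mRNA knockdown against scramble, -0.38 ± 0.18 (adjusted p = 0.157). Aurka, the kinase of spindle poles, was the other uncalled gene, at -0.34, 0.29 and -0.63. Plk1, Bub1, Bub1b, Ttk and Cdc20 were called between the knockdowns alone, at -0.74, -0.78, -0.74, -0.90 and -0.80. The call of Plk1 ended without circ knockdown replicate 1 (-0.73) or 3 (-0.65) or mRNA knockdown replicate 1 (-0.56) or 2 (-0.75), and that of Bub1 without circ knockdown replicate 1 (-0.73) or mRNA knockdown replicate 1 (-0.46).

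Centromere and kinetochore genes held the largest share of calls in the mRNA knockdown against scramble, 7 of 12 (median 0.64), with 2 lower in the circ knockdown against scramble (median -0.21) and 11 lower between the knockdowns (median -0.83). The 7 are 58.3% of the class, against 8.92% of all genes, and the 2 are 16.7%, near the 13.0% of all genes. Whether this class differs from the other classes was not tested. Hjurp (ENSMUSG00000044783.16, chromosome 1, 88262471 to 88277633, minus strand) is the chaperone that deposits the centromeric histone CENP-A. It had 194, 185 and 203 CPM in the circ knockdown, 284, 271 and 276 CPM in the mRNA knockdown and 215, 227 and 251 CPM in scramble. As with Cdc25b the 3 groups did not overlap, but the differences were small, at -0.25 ± 0.08 (adjusted p = 0.0284), 0.26 ± 0.08 (adjusted p = 0.0330) and -0.51 ± 0.08 (adjusted p = 4.21e-04). Against scramble its circ knockdown call ended without circ knockdown replicate 1 (-0.25) or 2 (-0.22) or scramble replicate 2 (-0.26) or 3 (-0.19). Its mRNA knockdown call ended without circ knockdown replicate 1 (0.25), mRNA knockdown replicate 1 (0.25), 2 (0.28) or 3 (0.27) or scramble replicate 1 (0.21) or 2 (0.25) and with only the 6 libraries of the comparison (0.25).

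Spc25, Spc24, Nuf2 and Ndc80 form the NDC80 complex, which binds microtubules at the kinetochore. Spc25 (ENSMUSG00000005233.16, chromosome 2, 69193895 to 69206194, minus strand) stood at 14.1, 15.9 and 17.7 CPM in the circ knockdown, 52.5, 36.7 and 33.7 CPM in the mRNA knockdown and 24.96, 29.3 and 39.8 CPM in scramble. Its circ libraries were below all other libraries, and it had the lowest log2 fold change of the 59 genes in the circ knockdown against scramble, -0.98 ± 0.19 (adjusted p = 0.00174), and between the knockdowns, -1.37 ± 0.19 (adjusted p = 2.07e-04). Its partner Spc24 had 9.48, 12.7 and 11.04 CPM in the circ knockdown, 23.5, 18.2 and 18.5 CPM in the mRNA knockdown and 10.4, 12.5 and 15.3 CPM in scramble, with the circ knockdown and scramble overlapping. Spc24 rose in the mRNA knockdown by 0.65 ± 0.16 (adjusted p = 0.0153) and had a direct difference of -0.86 ± 0.16 (adjusted p = 0.00201). Nuf2 had 21.8, 23.2 and 21.7 CPM in the circ knockdown, 61.4, 32.01 and 34.2 CPM in the mRNA knockdown and 16.8, 20.5 and 27.7 CPM in scramble, where replicate 1 of the mRNA knockdown was well above its other libraries. Nuf2 rose against scramble in the mRNA knockdown (0.97 ± 0.22, adjusted p = 0.00961), was at 0.03 in the circ knockdown, and was at -0.94 ± 0.22 (adjusted p = 0.00783) between the knockdowns. Ndc80 was called between the knockdowns alone (-0.76 ± 0.25, adjusted p = 0.0371). Of these calls, Spc24 in the mRNA knockdown ended without mRNA knockdown replicate 1 (0.52) or scramble replicate 1 (0.52) or 2 (0.63), and Ndc80 between the knockdowns ended without circ knockdown replicate 1 (-0.64) or 2 (-0.76), mRNA knockdown replicate 1 (-0.41) or scramble replicate 2 (-0.75) and with DESeq2 (-0.75).

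Among the other kinetochore genes, Cenpf (ENSMUSG00000026605.14, chromosome 1, 189640606 to 189688086, minus strand) is a large coiled-coil protein of the outer kinetochore. It had 42.7, 47.6 and 49.4 CPM in the circ knockdown, 128, 82.5 and 91.4 CPM in the mRNA knockdown and 41.8, 51.8 and 67.2 CPM in scramble. Its mRNA knockdown libraries lay above both other groups, and it was higher than in scramble by 0.90 ± 0.17 (adjusted p = 0.00290) and lower in the circ knockdown than in the mRNA knockdown, at -1.11 ± 0.17 (adjusted p = 4.81e-04). Cenph is a subunit of the constitutive centromere network. It had 8.005, 7.43 and 9.54 CPM in the circ knockdown, 20.04, 13.9 and 15.3 CPM in the mRNA knockdown and 8.22, 9.01 and 10.96 CPM in scramble. The same ordering held, with 0.80 ± 0.17 (adjusted p = 0.00530) for the mRNA knockdown against scramble and -0.98 ± 0.17 (adjusted p = 9.41e-04) between the knockdowns. Cenpk is its partner in that network. It had 5.28, 4.48 and 5.52 CPM in the circ knockdown, 16.3, 8.39 and 10.9 CPM in the mRNA knockdown and 6.93, 6.35 and 9.63 CPM in scramble. The circ libraries stood below all others, yet against scramble the difference of -0.59 ± 0.23 (adjusted p = 0.0794) did not pass the threshold, and the call was between the knockdowns, -1.22 ± 0.23 (adjusted p = 0.00194). Cenpe is a kinesin that moves chromosomes to the spindle equator. It was not called, at 45.6, 54.1 and 53.02 CPM in the circ knockdown, 61.6, 47.4 and 53.3 CPM in the mRNA knockdown and 38.2, 51.2 and 67.8 CPM in scramble. All its groups overlapped, and the 3 log2 fold changes were -0.05, 0.04 and -0.09. Cenpi and Cenpn, further subunits of the centromere network, were higher in the mRNA knockdown than in scramble (0.86 and 0.73). The call of Cenpi ended without circ knockdown replicate 1 (0.84) or 2 (0.84), mRNA knockdown replicate 1 (0.51) or scramble replicate 1 (0.66) or 2 (0.79), with limma-voom (0.81) and with only the 6 libraries of the comparison (0.84). The call of Cenpn ended without circ knockdown replicate 1 (0.72), 2 (0.72) or 3 (0.73), mRNA knockdown replicate 1 (0.45) or 3 (0.83) or scramble replicate 1 (0.55) or 2 (0.72), with limma-voom (0.69) and with only the 6 libraries of the comparison (0.72). Cenpa, the centromeric histone, was called between the knockdowns alone (-0.67), a call that ended without circ knockdown replicate 1 (-0.60) or 3 (-0.61) or mRNA knockdown replicate 1 (-0.53).

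Kinesins and spindle proteins were lower in the circ knockdown than in the mRNA knockdown in 9 of 9 cases, at a median of -0.79. Against scramble 1 of 9 was lower in the circ knockdown (median -0.25) and 3 of 9 higher in the mRNA knockdown (median 0.54). The first share, 11.1%, was near the 13.0% of all genes, and the second was 33.3% against 8.92%. Kif11 (ENSMUSG00000012443.3, chromosome 19, 37376403 to 37421859, plus strand) is the motor that pushes spindle poles apart. It had 60.8, 63.6 and 75.6 CPM in the circ knockdown, 176, 117 and 122 CPM in the mRNA knockdown and 72.3, 93.1 and 128 CPM in scramble. Its circ libraries lay below the mRNA knockdown and overlapped scramble replicate 1. The log2 fold change was -0.55 ± 0.19 (adjusted p = 0.0427) in the circ knockdown against scramble, 0.50 ± 0.19 (adjusted p = 0.0814) in the mRNA knockdown against scramble and -1.05 ± 0.19 (adjusted p = 0.00133) between them. The circ knockdown call of Kif11 against scramble ended without circ knockdown replicate 1 (-0.49) or 2 (-0.52), mRNA knockdown replicate 3 (-0.55) or scramble replicate 2 (-0.59) or 3 (-0.31), with DESeq2 (-0.55) and with limma-voom (-0.53). Kif18a is a motor that dampens chromosome movement at the metaphase plate. It stood at 12.9, 13.3 and 12.1 CPM in the circ knockdown, 35.4, 21.95 and 21.8 CPM in the mRNA knockdown and 14.3, 16.9 and 17.7 CPM in scramble. Its 3 groups did not overlap, although the log2 fold change of -0.35 ± 0.17 (adjusted p = 0.151) in the circ knockdown against scramble did not pass the threshold. It was higher in the mRNA knockdown than in scramble by 0.69 ± 0.17 (adjusted p = 0.0136), a call that ended without scramble replicate 1 (0.61), and the direct difference was -1.04 ± 0.17 (adjusted p = 7.33e-04).

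Tpx2, which activates the Aurora A kinase on spindle microtubules, had 61.6, 76.5 and 67.4 CPM in the circ knockdown, 167, 106 and 101 CPM in the mRNA knockdown and 54.8, 77.8 and 99.3 CPM in scramble. Kif4 is a chromosome-bound kinesin. It had 24.95, 33.7 and 32.1 CPM in the circ knockdown, 62.1, 47.04 and 47.7 CPM in the mRNA knockdown and 26.4, 36.5 and 44.8 CPM in scramble. Kif15 is a spindle kinesin that acts beside Kif11. It had 27.5, 31.8 and 34.8 CPM in the circ knockdown, 79.1, 47.3 and 49.1 CPM in the mRNA knockdown and 29.7, 34.4 and 51.6 CPM in scramble. In all 3 genes replicate 1 of the mRNA knockdown was the highest library and scramble overlapped the circ knockdown. The differences between the knockdowns were -0.87 ± 0.20 (adjusted p = 0.00761), -0.79 ± 0.17 (adjusted p = 0.00519) and -0.90 ± 0.21 (adjusted p = 0.00735) in that order. Against scramble Tpx2 and Kif4 were higher in the mRNA knockdown, at 0.69 ± 0.20 (adjusted p = 0.0339) and 0.54 ± 0.18 (adjusted p = 0.0486), and Kif15 did not pass the threshold, at 0.60 ± 0.21 (adjusted p = 0.0676). The Tpx2 call ended without circ knockdown replicate 2 (0.67), mRNA knockdown replicate 1 (0.42) or scramble replicate 1 (0.49) or 2 (0.69), with DESeq2 (0.68) and with only the 6 libraries of the comparison (0.67). The Kif4 call ended without circ knockdown replicate 2 (0.53) or 3 (0.54), mRNA knockdown replicate 1 (0.40), 2 (0.61) or 3 (0.60) or scramble replicate 1 (0.36) or 2 (0.55), with RLE factors (0.53), with upper-quartile factors (0.54) and with only the 6 libraries of the comparison (0.53). The chromosome-arm motor Kif22, the microtubule depolymerase Kif2c and the spindle proteins Nusap1 and Hmmr were called between the knockdowns alone, at -0.71, -0.78, -0.66 and -0.74. Of these, Kif2c ended without circ knockdown replicate 1 (-0.72), and Nusap1 without circ knockdown replicate 1 (-0.57) or mRNA knockdown replicate 1 (-0.50). Hmmr ended without circ knockdown replicate 1 (-0.67), 2 (-0.83) or 3 (-0.71), mRNA knockdown replicate 1 (-0.35) or scramble replicate 2 (-0.74), with DESeq2 (-0.73) and with limma-voom (-0.68).

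Of 12 genes of the chromosomal passenger complex and cytokinesis, 10 were lower in the circ knockdown than in the mRNA knockdown (median -0.78), 1 was lower in the circ knockdown (median -0.23) and 5 were higher in the mRNA knockdown (median 0.51) against scramble. Against scramble the share called lower, 8.33%, was below the 13.0% of all genes, and the share called higher was 41.7% against 8.92%. Ect2 (ENSMUSG00000027699.19, chromosome 3, 27097222 to 27153878, minus strand) is the exchange factor that activates RhoA at the cleavage furrow. It had 27.3, 31.3 and 29.997 CPM in the circ knockdown, 75.7, 47.6 and 48.7 CPM in the mRNA knockdown and 21.4, 27.5 and 33.7 CPM in scramble. The mRNA knockdown stood above both other groups, which overlapped, with 1.05 ± 0.18 (adjusted p = 0.00163) against scramble and -0.96 ± 0.18 (adjusted p = 0.00194) between the knockdowns. Racgap1 and Kif23 are the partners of the centralspindlin complex, which recruits Ect2 to the midzone. Racgap1 had 65.5, 75.6 and 82.4 CPM in the circ knockdown, 171, 136 and 130.3 CPM in the mRNA knockdown and 92.6, 125 and 152 CPM in scramble, with the circ libraries below all others. It fell in the circ knockdown, at -0.73 ± 0.16 (adjusted p = 0.00400) on the log2 scale, and stood at 0.24 ± 0.16 (adjusted p = 0.319) in the mRNA knockdown against scramble and at -0.97 ± 0.16 (adjusted p = 7.03e-04) between the knockdowns. Kif23 had 30.8, 31.8 and 28.7 CPM in the circ knockdown, 78.7, 50.4 and 51.2 CPM in the mRNA knockdown and 26.9, 34.4 and 43.5 CPM in scramble, with the mRNA knockdown above both other groups. It rose there by 0.78 ± 0.18 (adjusted p = 0.00947), stood at -0.20 ± 0.18 (adjusted p = 0.444) in the circ knockdown against scramble, and had a direct difference of -0.98 ± 0.18 (adjusted p = 0.00159).

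Aurkb is the kinase of the passenger complex. It had 17.3, 22.6 and 20.7 CPM in the circ knockdown, 46.9, 39.9 and 35.3 CPM in the mRNA knockdown and 16.9, 26.02 and 34.7 CPM in scramble. Its mRNA knockdown libraries were above scramble replicate 3 by a narrow margin, and the log2 fold changes were 0.65 ± 0.20 (adjusted p = 0.0405) against scramble and -1.01 ± 0.20 (adjusted p = 0.00273) between the knockdowns. The first of these calls ended without circ knockdown replicate 2 (0.64) or 3 (0.65), mRNA knockdown replicate 1 (0.54) or 2 (0.66) or scramble replicate 1 (0.42) or 2 (0.65) and with only the 6 libraries of the comparison (0.63). Birc5 (ENSMUSG00000017716.15, chromosome 11, 117849251 to 117855743, plus strand), or survivin, which anchors the complex at the centromere, had 21.02, 26.8 and 21.7 CPM in the circ knockdown, 44.9, 29.7 and 26.98 CPM in the mRNA knockdown and 12.3, 16.3 and 21.3 CPM in scramble. Scramble was lowest here, with its replicate 3 inside the range of the circ knockdown. Birc5 rose in the mRNA knockdown by 1.02 ± 0.21 (adjusted p = 0.00470), was at 0.47 ± 0.21 (adjusted p = 0.116) in the circ knockdown, the highest value of the 59 genes in that comparison, and at -0.55 ± 0.20 (adjusted p = 0.0629) between the knockdowns.

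Kif14 is a kinesin of the midbody. It had 13.3, 16.2 and 14.1 CPM in the circ knockdown, 26.5, 19.1 and 20.8 CPM in the mRNA knockdown and 10.2, 12.3 and 15.4 CPM in scramble. Kif20a, which carries the passenger complex to the midzone, had 28.8, 31.1 and 29.8 CPM in the circ knockdown, 78.9, 51.03 and 50.8 CPM in the mRNA knockdown and 30.3, 43.6 and 58.4 CPM in scramble. Anln is anillin of the contractile ring. It had 22.1, 21.3 and 20.4 CPM in the circ knockdown, 42.7, 26.5 and 26.4 CPM in the mRNA knockdown and 16.2, 22.6 and 32.2 CPM in scramble. In each gene the mRNA knockdown lay above the circ knockdown, and in Kif14 it also lay above all of scramble. Kif14 rose in the mRNA knockdown by 0.81 ± 0.16 (adjusted p = 0.00447) and was lower in the circ knockdown than in the mRNA knockdown at -0.61 ± 0.16 (adjusted p = 0.0135), a direct call that ended without circ knockdown replicate 1 (-0.54) or mRNA knockdown replicate 1 (-0.46). Kif20a was called between the knockdowns (-1.01 ± 0.21, adjusted p = 0.00311) and was at -0.56 ± 0.21 (adjusted p = 0.0577) in the circ knockdown against scramble. Anln was called in no comparison, with -0.58 ± 0.22 (adjusted p = 0.0667) between the knockdowns. The passenger subunits Incenp and Cdca8, the midzone bundler Prc1 and the kinesin Kif20b were called between the knockdowns alone, at -0.61, -0.81, -0.48 and -0.76. The call of Incenp ended without circ knockdown replicate 1 (-0.55) or 2 (-0.59) or mRNA knockdown replicate 1 (-0.45), and that of Kif20b without circ knockdown replicate 1 (-0.67) or 3 (-0.70) or mRNA knockdown replicate 1 (-0.52). Prc1 lost its call without circ knockdown replicate 1 (-0.46), 2 (-0.49) or 3 (-0.48), mRNA knockdown replicate 1 (-0.31) or 3 (-0.54) or scramble replicate 2 (-0.48).

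Condensin and chromosome genes were lower in the circ knockdown than in the mRNA knockdown in 7 of 7 cases (median -0.83), with 1 lower in the circ knockdown (median -0.37) and 1 higher in the mRNA knockdown (median 0.46) against scramble. Each of these single genes is 14.3% of the class, against 13.0% lower and 8.92% higher over all genes. Ncapd2 (ENSMUSG00000038252.13, chromosome 6, 125168007 to 125191701, minus strand) is a subunit of condensin I. It stood at 140.4, 135 and 150.3 CPM in the circ knockdown, 281, 260.1 and 245 CPM in the mRNA knockdown and 202, 232 and 263 CPM in scramble. The circ libraries were below all others and close to each other, and the mRNA knockdown overlapped scramble. It fell in the circ knockdown, at -0.71 ± 0.10 (adjusted p = 1.67e-04) on the log2 scale, and stood at 0.17 ± 0.10 (adjusted p = 0.241) in the mRNA knockdown against scramble and at -0.88 ± 0.10 (adjusted p = 4.62e-05) between the knockdowns. Ncaph and Ncapg, further subunits of condensin I, were not called against scramble in either knockdown. Ncaph had 29.2, 26.1 and 30.6 CPM in the circ knockdown, 57.8, 45.1 and 43.04 CPM in the mRNA knockdown and 27.2, 36.2 and 49.1 CPM in scramble. Ncapg had 21.2, 24.7 and 26.7 CPM in the circ knockdown, 63.96, 38.8 and 40.5 CPM in the mRNA knockdown and 21.4, 30.2 and 41.5 CPM in scramble. Both overlapped scramble replicate 1 in the circ knockdown, and were at -0.39 ± 0.18 (adjusted p = 0.117) and -0.36 ± 0.22 (adjusted p = 0.249) against scramble and at -0.76 ± 0.17 (adjusted p = 0.00640) and -0.98 ± 0.22 (adjusted p = 0.00583) between the knockdowns.

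Top2a is the topoisomerase that untangles sister chromatids. It had 161, 179 and 209 CPM in the circ knockdown, 464, 293 and 309 CPM in the mRNA knockdown and 174, 236 and 323 CPM in scramble. Mki67 is the Ki-67 protein that coats mitotic chromosomes. It had 209, 232 and 274 CPM in the circ knockdown, 511, 359 and 404 CPM in the mRNA knockdown and 213, 312 and 399.9 CPM in scramble. Both were highest in replicate 1 of the mRNA knockdown and scramble overlapped both knockdowns. Between the knockdowns they were at -0.96 ± 0.21 (adjusted p = 0.00445) and -0.83 ± 0.19 (adjusted p = 0.00618), and against scramble neither passed the threshold in either knockdown. Smc2, an ATPase core of both condensins, was the gene of the class that rose in the mRNA knockdown (0.57 ± 0.15, adjusted p = 0.0215). That call ended without mRNA knockdown replicate 1 (0.40) or scramble replicate 1 (0.43) or 2 (0.55). Its partner Smc4 was at 0.32 there without a call.

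The 2 transcription factors were both lower in the circ knockdown. Foxm1 (ENSMUSG00000001517.14, chromosome 6, 128362967 to 128376146, plus strand), which drives genes of G2 and mitosis, had 35.7, 32.4 and 35.5 CPM in the circ knockdown, 82.2, 71.1 and 71.1 CPM in the mRNA knockdown and 42.3, 63.3 and 76.1 CPM in scramble. Its circ libraries were below all others, and scramble replicate 1 was nearest to them. The log2 fold change was -0.81 ± 0.16 (adjusted p = 0.00216) in the circ knockdown against scramble, 0.30 ± 0.16 (adjusted p = 0.210) in the mRNA knockdown against scramble and -1.11 ± 0.16 (adjusted p = 2.85e-04) between them. Mybl2 is the B-Myb subunit that joins MuvB to activate the same genes. It had 13.6, 11.2 and 14.3 CPM in the circ knockdown, 26.5, 25.1 and 25.7 CPM in the mRNA knockdown and 13.3, 21.97 and 28.9 CPM in scramble. Scramble replicate 1 lay within the circ libraries, and the log2 fold changes were -0.72 ± 0.21 (adjusted p = 0.0191), 0.26 ± 0.20 (adjusted p = 0.414) and -0.98 ± 0.20 (adjusted p = 0.00355) in the same order. The circ knockdown call of Mybl2 against scramble ended without circ knockdown replicate 2 (-0.63) or scramble replicate 2 (-0.71) or 3 (-0.45).

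**Figure D4:**
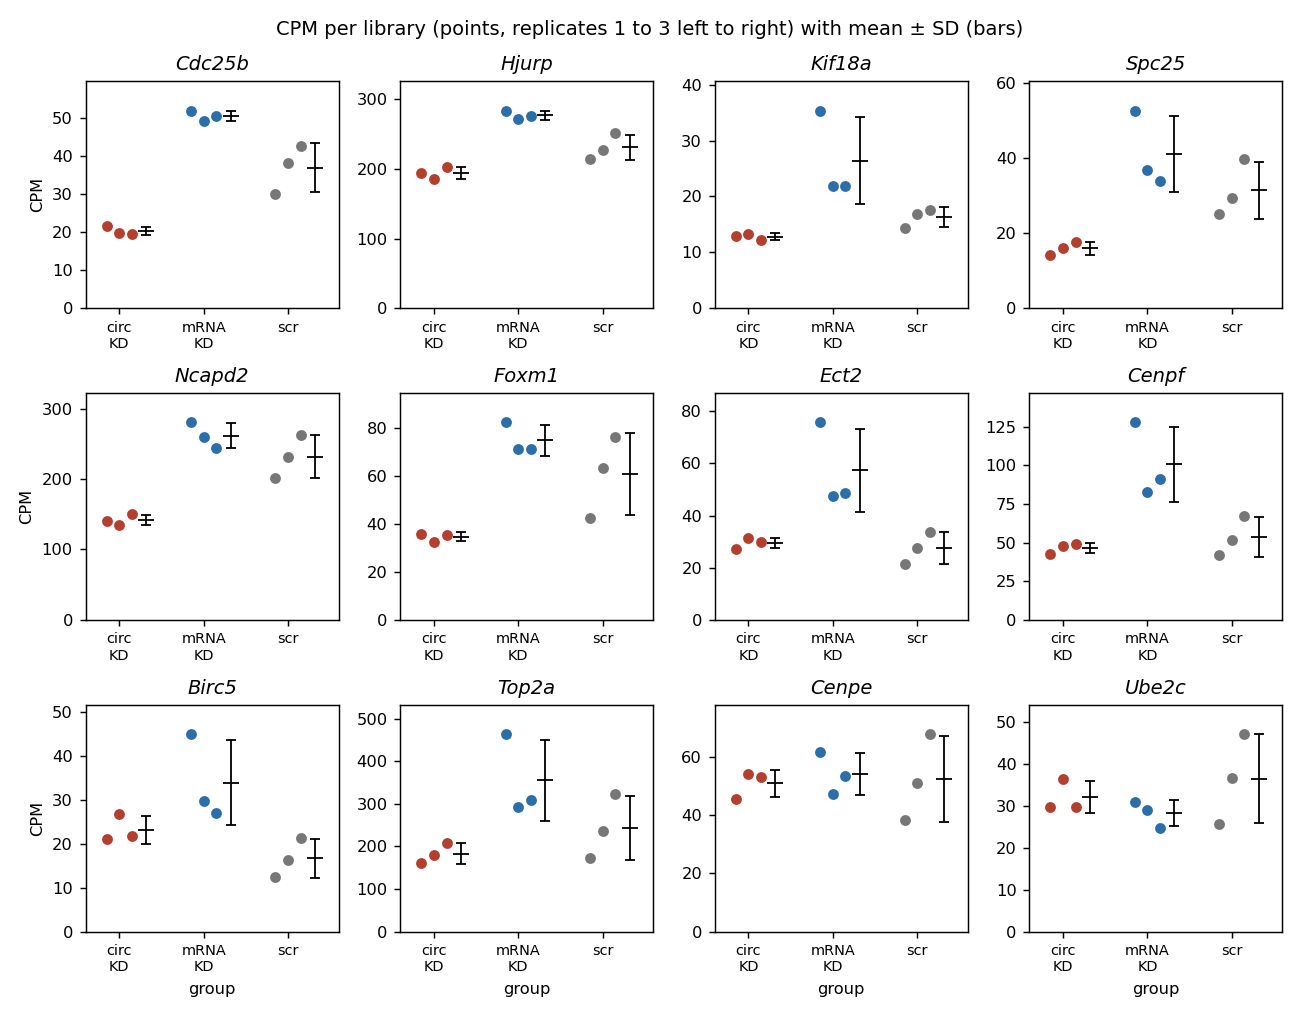
CPM (vertical axes, from 0) of 12 of the genes in each library, with points for replicates 1 to 3 of the circSlc45a4 knockdown (circ KD), the Slc45a4 mRNA knockdown (mRNA KD) and scramble (scr), and bars for mean ± SD (n = 3 each). Cdc25b, Hjurp and Kif18a have 3 groups that do not overlap, Spc25, Ncapd2 and Foxm1 are lowest in the circSlc45a4 knockdown, and Cenpe and Ube2c overlap in all comparisons.

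The remaining 23 called genes were all lower in the circ knockdown than in the mRNA knockdown, by log2 fold changes of -0.94 to -0.48 (adjusted p = 0.00829 to 0.0442). Per kilobase of exon the mean level in scramble was highest for Ncapd2 (37.0 CPM per kb), Cks2 (32.5), Mki67 (30.6), Hjurp (27.7) and Top2a (27.1) and lowest for Kif14 (1.22), Cenpk (1.46) and Kif18a (1.66). Of the 59 genes, 4 (Ccnb1, Ccnb2, Kif22 and Kif4) have an annotated pseudogene of the same name, 3 (Foxm1, Ncapd2 and Top2a) share exon positions with a gene on the same strand and 15, Cdc25b and Ube2c among them, with one on the opposite strand. Reads of these genes may have been split or shared, since the strand setting of the counting is not given in the sources used here.

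A second list of 64 other mitotic genes was tested in the same fit. Between the knockdowns 47 were lower (73.4%, against 12.3% of all genes) and 2 higher in the circ knockdown (median -0.71). Against scramble the circ knockdown had 9 lower and 3 higher (median -0.27). The 14.1% called lower was near the 13.0% of all genes. The mRNA knockdown had 13 higher (20.3%, against 8.92% of all genes) and 1 lower (median 0.42). Dsn1 is a subunit of the MIS12 kinetochore complex. It had 11.3, 10.7 and 12.7 CPM in the circ knockdown, 26.3, 21.7 and 23.6 CPM in the mRNA knockdown and 14.9, 19.7 and 21.6 CPM in scramble, with the circ libraries below all others. It was at -0.70 ± 0.14 (adjusted p = 0.00279) in the circ knockdown against scramble and -1.04 ± 0.14 (adjusted p = 2.04e-04) between the knockdowns. Kntc1 is a subunit of the kinetochore RZZ complex. It had 23.8, 20.1 and 24.9 CPM in the circ knockdown, 73.03, 52.5 and 49.3 CPM in the mRNA knockdown and 26.9, 37.4 and 46.0 CPM in scramble. Its groups did not overlap, and it was at -0.68 ± 0.18 (adjusted p = 0.0141), 0.66 ± 0.18 (adjusted p = 0.0235) and -1.34 ± 0.18 (adjusted p = 2.09e-04) in the 3 comparisons.

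S phase genes were lower in the circ knockdown against scramble in 13 of 20 cases (65.0%, against 13.0% of all genes) and higher in 0 (median -0.52). In the mRNA knockdown 4 of 20 were higher (against 8.92% of all genes) and 1 lower (median 0.30). The values there ranged from -1.18 to 0.91. Between the knockdowns 19 were lower (95%, against 12.3% of all genes) and 1 higher in the circ knockdown (median -0.84), the latter at 0.95. E2f1 is a transcription factor of S phase entry. It had 20.9, 20.99 and 23.2 CPM in the circ knockdown, 49.8, 50.2 and 46.5 CPM in the mRNA knockdown and 39.02, 57.6 and 66.9 CPM in scramble, with the circ libraries below all others. It fell in the circ knockdown, at -1.33 ± 0.15 (adjusted p = 3.80e-05) on the log2 scale, and stood at -0.16 ± 0.15 (adjusted p = 0.491) in the mRNA knockdown against scramble and at -1.17 ± 0.15 (adjusted p = 1.46e-04) between them. Ccne2 is cyclin E2. It had 10.7, 9.73 and 12.3 CPM in the circ knockdown, 36.2, 22.3 and 24.6 CPM in the mRNA knockdown and 12.4, 14.4 and 17.4 CPM in scramble. It was at -0.44 ± 0.18 (adjusted p = 0.0948), 0.91 ± 0.18 (adjusted p = 0.00394) and -1.34 ± 0.18 (adjusted p = 1.95e-04) in the 3 comparisons. Cdc6, a licensing factor, had -0.52, 0.82 and -1.33, and Rrm2, a subunit of ribonucleotide reductase, -0.82, 0.43 and -1.25. The calls of Cdc6 were in the mRNA knockdown against scramble and between the knockdowns, and those of Rrm2 in the circ knockdown against scramble and between the knockdowns.

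Markers of cell types that the sort could hold were read in the same fit, in which 14.1% of all genes were called higher and 13.0% lower in the circ knockdown, and 8.92% higher and 9.09% lower in the mRNA knockdown, against scramble. Of 10 apical progenitor markers, 6 were higher and 0 lower in the circ knockdown against scramble (median 0.60) and 4 higher and 0 lower in the mRNA knockdown (median 0.41), with summed CPM of 1389 to 1526, 919 to 1183 and 837 to 1094 in the circ knockdown, the mRNA knockdown and scramble. Fabp7 is a lipid carrier of radial glia. It had 306, 368 and 372 CPM in the circ knockdown, 192, 170.1 and 214 CPM in the mRNA knockdown and 136, 142 and 112 CPM in scramble. Sox2 is a progenitor transcription factor. It had 85.2, 92.5 and 72.3 CPM in the circ knockdown, 63.8, 36.95 and 45.1 CPM in the mRNA knockdown and 33.9, 44.6 and 48.1 CPM in scramble. Both were highest in the circ knockdown. Slc1a3, a glutamate transporter of radial glia, and Pax6, a progenitor transcription factor, were at 0.75 and 0.81 in the circ knockdown and 0.52 and 0.20 in the mRNA knockdown against scramble. Of 8 basal progenitor markers 4 were lower in the circ knockdown and 3 lower in the mRNA knockdown against scramble, none higher. Eomes is the transcription factor of basal progenitors. It had 351, 360.5 and 298 CPM in the circ knockdown, 488, 513 and 530.0 CPM in the mRNA knockdown and 447, 473 and 436 CPM in scramble. Eomes was lower in the circ knockdown than in scramble (-0.43 ± 0.08, adjusted p = 0.00223) and than in the mRNA knockdown (-0.60 ± 0.08, adjusted p = 2.46e-04).

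Of 10 neuron markers 2 were higher and 2 lower in the circ knockdown, and 2 higher and 3 lower in the mRNA knockdown, against scramble. The medians were -0.01 and -0.04, and 5 of the 10 values were positive in each of these comparisons with scramble. The values ranged from -0.83 to 1.34 in the circ knockdown and from -0.98 to 0.60 in the mRNA knockdown. The summed CPM of these markers was 5745 to 6020 in the circ knockdown, 5210.0 to 5768 in the mRNA knockdown and 6029 to 7107 in scramble, with the highest sum in scramble replicate 1, which had the lowest mitotic sum of its group. Stmn2 is a microtubule regulator of neurites. It had 210.3, 266 and 265 CPM in the circ knockdown, 173, 274 and 221 CPM in the mRNA knockdown and 518, 424 and 379 CPM in scramble. Dcx, a microtubule protein of migrating neurons, was at -0.63 and -0.58 against scramble. Map2, a dendritic microtubule protein, was higher in the circ knockdown (0.73) and in the mRNA knockdown (0.27). Of 9 genes of cell-cycle exit, 2 were lower in the circ knockdown (Cdkn2c at -0.70 and Rbl2 at -0.27), and in the mRNA knockdown Cdkn1a was higher (1.39) and Btg2 lower (-0.80). Btg2 is also among the basal progenitor markers, so its call is counted in both lists. Summed CPM was low for microglia (5.07 to 8.23, 2.76 to 6.01 and 1.57 to 3.39 in the circ knockdown, the mRNA knockdown and scramble), ventral inhibitory neurons (1.503 to 2.504, 2.83 to 4.63 and 2.68 to 6.45) and endothelial cells (0.604 to 1.34, 0.837 to 1.136 and 1.39 to 2.96). For erythroid cells it was 8.85 to 25.6, 6.36 to 6.42 and 9.01 to 14.5. Of these 4 lists, 3 of 5 tested inhibitory markers were lower in the circ knockdown than in scramble (Gad2, Dlx1 and Dlx2, list median -1.54), as was 1 of 3 endothelial markers (Esam, -1.58), and 1 of 5 microglial markers was higher (C1qa, 1.77, list median 1.28). Between the knockdowns the globin genes Hba-a1, Hba-a2 and Hbb-y, 3 of 5 erythroid markers, were higher (list median 1.63) and Gad2 was lower (-1.56) in the circ knockdown. Over all genes 13.8% were called higher and 12.3% lower in that comparison. In the mRNA knockdown against scramble edgeR called 0 in each of the 4 lists, with an unadjusted p under 0.05 for 1 inhibitory, 0 microglial, 1 endothelial and 2 erythroid markers. No marker of these 4 lists was at 0 in all libraries. The part of these cell-type markers in the results for the mitotic genes was not tested.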

How the data were processed

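The table deposited by the authors holds whole-number read counts per gene for 53379 gene IDs in 9 libraries. The submitters' processing notes list STAR 2.4.2a, bcl2fastq 2.17.1.14, DESeq2 and mm10, without their roles. No counting program, strand setting or annotation release is given in the sources used here. IDs were joined to GENCODE M21 (GRCm38) for symbols and positions.

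edgeR 4.0.16 in R 4.3.3 was used with filterByExpr by group (minimum count 10), TMM scaling and a quasi-likelihood F test with 1 term per group over all 9 libraries (6 residual degrees of freedom). A call is a Benjamini-Hochberg adjusted p under 0.05 over 17760 genes, and adjusted p-values in the text are from this fit. CPM are counts scaled to a common library size with TMM factors, each standard error is the absolute log2 fold change over the root of its F statistic, and the common biological coefficient of variation was 13.9%. Where separate embryos behind each library are not stated, p-values measure only the spread between these libraries. A count of 0 allows up to 3 counts, for counting error only. On simulated counts the fit recovered 51% of 1.5-fold and 81% of 2-fold changes, 100 genes each, among 17760 in the circSlc45a4 knockdown against scramble. The changed genes were drawn from all genes above 1 CPM, with noise independent between genes. In that comparison the median standard error was 0.19 over the 59 genes and 0.14 over all genes. Recovery for the 59 genes may therefore be lower.

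The 59 genes, the other lists and the tests were chosen with earlier results of these data known. Values in every library are given for the 30 called genes with the smallest p in any comparison and for up to 2 uncalled genes per class with the highest mean CPM, and up to 4 genes of each other list with the smallest p are eligible to be named, and some of them are not reported here. Others were named after their values were seen, or because they were counted. Alternatives were RLE and upper-quartile factors, no filter, DESeq2 1.42.0, limma-voom (limma 3.58.1), only the 6 libraries compared, a replicate block, log2 Xist CPM as a covariate, and each library left out.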

Additional observations from a re-analysis of the deposited data

Results flagged for a closer look

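In 3 of the 59 genes every circSlc45a4 knockdown library lay below all scramble libraries while every Slc45a4 mRNA knockdown library lay above them (5.08%). This order held for 1.25% of all genes tested and the opposite order for 2.04%, and whether the shares differ was not tested. Cdc25b, with a log2 fold change of -1.32 ± 0.12 between the knockdowns (adjusted p = 9.35e-06), had 19.5 to 21.5, 49.2 to 52.0 and 29.9 to 42.8 CPM in the circSlc45a4 knockdown, the Slc45a4 mRNA knockdown and scramble. Hjurp differed by -0.51 ± 0.08 between them (adjusted p = 4.21e-04), on a narrower range. Kif18a differed by -1.04 ± 0.17 (adjusted p = 7.33e-04), and its difference from scramble in the circSlc45a4 knockdown (-0.35) did not pass the threshold.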

How the results depend on the processing

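The direction of the median log2 fold change held under all 17 alternatives in each comparison. Leaving out single libraries gave 6 to 24 called genes in the circSlc45a4 knockdown against scramble, 8 to 40 in the Slc45a4 mRNA knockdown against scramble and 35 to 56 between the knockdowns, with medians of -0.44 to -0.06, 0.29 to 0.73 and -0.90 to -0.59. Other settings moved the counts of 9 and 19 against scramble. Without a filter on low counts they were 30 (29 lower, 1 higher) and 47 (46 higher, 1 lower), with only the 6 libraries compared 16 and 12, and with the Xist covariate 3 and 0, the last with 8 at an unadjusted p under 0.05. The cause of these shifts was not tested. Between the knockdowns no setting moved the 52 by over 1.5 times. Over 3009 values of single genes and alternatives, 179 calls were lost and 148 gained, no called value changed sign, and 46 uncalled values did. Same-numbered libraries correlated at -0.14 to 0.12 after removal of group means and matched their own number best in 8 of 18 cases, so the numbers share only a label, and a replicate block gave 8, 13 and 44 calls. The lists of ended calls for single genes leave out this block and the Xist covariate. Upper-quartile factors turned 2445 higher and 2187 lower genes between the knockdowns, over all genes, into 2022 and 2785, with a median of all genes of -0.07, and called 56 of the 59. With 3 libraries a group, changes near 1.5-fold were partly missed on simulated counts.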

Other observations

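A few mitotic genes outside the 59 ran differently from most of the 64 in some of the comparisons. Mis12, the founding subunit of the MIS12 kinetochore complex, was higher in both knockdowns. It had 39.1, 44.3 and 43.1 CPM in the circ knockdown, 68.7, 44.9 and 48.5 CPM in the mRNA knockdown and 23.7, 25.5 and 26.3 CPM in scramble, and was at 0.74 ± 0.14 (adjusted p = 0.00156) in the circ knockdown and 1.10 ± 0.14 (adjusted p = 1.67e-04) in the mRNA knockdown against scramble, with no overlap with scramble. Cenpc1, which links the centromere to the MIS12 complex, had 52.8, 51.7 and 50.2 CPM in the circ knockdown, 84.9, 63.4 and 69.1 CPM in the mRNA knockdown and 34.4, 36.7 and 38.9 CPM in scramble. It was higher in both knockdowns than in scramble, at 0.49 ± 0.11 (adjusted p = 0.00385) and 0.98 ± 0.11 (adjusted p = 5.10e-05), and lower in the circ knockdown than in the mRNA knockdown, at -0.49 ± 0.10 (adjusted p = 0.00400). Ska2, a kinetochore protein of the SKA complex, was the third of the 64 genes that was higher in the circ knockdown against scramble. Both comparisons with scramble share its 3 libraries. Cks1b, a Cdk-binding protein, went the other way, with 24.8, 30.1 and 23.5 CPM in the circ knockdown, 17.3, 20.8 and 18.5 CPM in the mRNA knockdown and 21.5, 25.9 and 31.0 CPM in scramble. It was the 1 gene of the 64 that was lower in the mRNA knockdown than in scramble (-0.47 ± 0.14, adjusted p = 0.0350), and with Fzr1, a late activator of the APC/C, it was higher in the circ knockdown than in the mRNA knockdown, at 0.47 ± 0.14 (adjusted p = 0.0261) for Cks1b and 0.28 ± 0.10 (adjusted p = 0.0481) for Fzr1. Ska2, Cks1b and Fzr1 were chosen after their values were seen.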
